A study of Mus musculus with 12 samples.

Results

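The nuclear genes of respiratory complexes I to IV were described across 12 arrays of mouse embryonic ventricle, the pumping chambers of the heart. The list named 49 genes, taken by symbol, and each gene was represented by the probe set (a group of short probes against 1 transcript) with the highest mean log2 signal. Of the 49 genes, 48 were measured, among 18193 genes named on the array, and all 48 were among the 9667 genes tested. For Cox7b no probe set was assigned to this gene alone, and it was not analysed here. The 48 genes comprised 6 core and 17 accessory subunits of complex I, 4 subunits of complex II, 7 of complex III, cytochrome c, and 13 subunits of complex IV, the last including Ndufa4, which was first assigned to complex I.

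The respiratory chain of the inner mitochondrial membrane passes electrons from NADH (complex I) and succinate (complex II) through ubiquinone to complex III, then through cytochrome c to complex IV, which reduces oxygen to water. Complexes I, III and IV pump protons, and the gradient drives ATP synthesis. Nuclear and mitochondrial genomes both supply subunits, and in heart muscle, which depends on oxidative metabolism, several complex IV subunits exist as a heart or muscle isoform and a ubiquitous one.

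RNA came from the cardiac ventricle at embryonic day 16.5, from 3 independent embryos in each of 4 groups. These were wild type, embryos without Hdac2 (Hdac2-null), embryos without Hopx (Hopx-null) and embryos without both (double-null). Hdac2 is a histone deacetylase of class I. Hopx is an atypical homeodomain protein that acts in cardiac muscle without binding DNA. The labels give a genotype by name only, and name no allele or agent common to all groups. Alleles, strain, sex, litter and any Cre line are not given in the sources used here. As its title states, the series concerns what the lack of these genes does to the heart of the embryo.

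The targeted genes matched the genotypes in each library. For Hdac2 the signal was 4839 ± 314 units (SD, n = 3) in wild type and 4.05 ± 0.0049 in Hdac2-null embryos, and Hopx signal was 9817 ± 2082 in wild type and 1992 ± 111 in Hopx-null embryos. For the tissue label, 10 of 10 ventricular cardiomyocyte markers were above the signal floor of 82.5 units on all arrays, and their summed signal ranged from 298400 to 306360 per array. Of 7 atrial markers, 6 were also above the floor on all arrays. Their summed signal ranged from 56610 on double-null 1 to 78224 on wild type 1. The markers therefore show heart muscle, but do not show that atrial tissue was absent. Xist RNA, which marks an inactive X chromosome, was at 4988 units or more on 2 wild-type arrays (1 and 2) and on the first array of each null group, and at 22.2 or less on the other 7. The sexes were therefore unevenly spread over the groups. The Gapdh log2 ratio of 3′ to 5′ signal, a measure of RNA integrity, stood at 1.33 for wild type 1, against 0.84 to 1.07 elsewhere. The same ratio for beta-actin was 2.76 for wild type 1, within the range of 2.63 to 2.80 elsewhere.

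Respiratory chain transcripts were among the brightest on the arrays, and their signals differed little between embryos. The median over the 48 genes was 18849 units, at percentile 97.7 of the tested genes, and the gene means ran from 1208 units for Cox7c to 38000 units for Cox5b. Levels cannot be ranked between genes, because each probe set binds with its own efficiency. The residual SD within genotypes had a median of 0.06 on the log2 scale over the 48 genes, against 0.135 over all tested genes. All tested genes were dimmer, with a median of 1525 units, and other bright lists also had a low spread. The median SD was 0.041 for ATP synthase (23807 units) and 0.053 for the tricarboxylic acid cycle (17186 units). It was 0.071 for mitochondrial import and outer membrane genes (10903 units) and 0.044 for ventricular markers (35785 units). By complex, the median SD was 0.05 for the complex I core, 0.07 for its accessory subunits, 0.07 for complex II, 0.06 for complex III and 0.04 for complex IV.

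**Figure D1:**
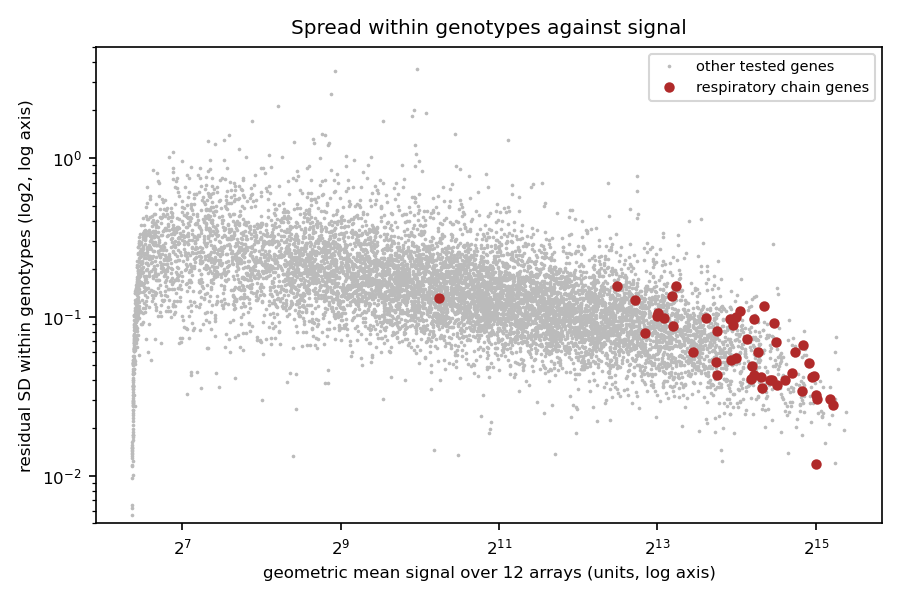
Residual SD within genotypes on the log2 scale (vertical axis) against mean signal on a log axis (horizontal axis), with 1 point per tested gene and the respiratory chain genes in a separate colour. The respiratory chain genes lie at the bright, low-spread edge of the cloud, with Cox6b1 lowest at 0.012 and Cox7a1 highest at 0.16.

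Cox6b1, a complex IV subunit that faces the intermembrane space, had the smallest spread. Its signal was 32817, 32873 and 32873 units in wild type, 32597, 32531 and 33005 in Hdac2-null, 32327, 32488 and 33032 in Hopx-null and 32384, 32967 and 32680 in double-null embryos. The highest of the 12 arrays exceeded the lowest by 1.02-fold, and the groups overlapped in every comparison of 2 genotypes. Uqcrc1, a core protein of complex III, and Cox7a1, the heart and muscle isoform of a complex IV subunit, were at the other end with residual SDs of 0.16 each, and their highest array exceeded their lowest by 1.48-fold and 1.41-fold.

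In Hdac2-null embryos, respiratory chain transcripts were mostly a few percent below wild type, and none passed the test. The median log2 difference was -0.030, against -0.014 over all tested genes, and 40 of the 48 genes were lower, where 55.1% of all tested genes were lower. None of the 48 was called at an adjusted p under 0.05 (limma with Benjamini-Hochberg adjustment, smallest adjusted p = 0.925), where the share called over all tested genes was 0.0207%. An unadjusted p under 0.05 was found for 0 of the 48, against 5.11% of all tested genes. All 3 Hdac2-null arrays lay below all 3 wild-type arrays for 3 genes (5.69% of all genes), namely Cox5b, Uqcrc2 and Sdhd, and above them for none (3.89%). Without wild type 3, 8 genes had an unadjusted p under 0.05. Here and below, such counts with an array left out are not set against all tested genes in the same fit. They therefore do not set the 48 genes apart from other genes. With single arrays left out, the median ran from -0.056 (without Hdac2-null 3) to -0.0077 (without wild type 2) and the count of lower genes from 28 (without wild type 2) to 45 (without wild type 3). In bulk tissue, fewer cells of a type and less RNA per cell cannot be told apart. The 95% confidence interval of the difference lay between 20% lower and 25% higher for 46 of the 48 genes, against 48.3% of all tested genes. Other bright lists had similar counts, 15 of 16 ATP synthase genes, 12 of 13 tricarboxylic acid cycle genes and 10 of 10 ventricular markers, and 10 of 14 import and outer membrane genes. Of the 48 genes, the interval lay in that range for 45 in Hopx-null and 40 in double-null embryos against wild type, and for 35 between double-null and Hopx-null embryos.

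The genes with the smallest p against wild type were Cox5b and Ndufa1. Cox5b, a nuclear subunit of complex IV, was measured at 39074, 39116 and 37721 units in wild type and at 37046, 37252 and 37710 in Hdac2-null embryos. The groups did not overlap, but wild type 3 and Hdac2-null 3 almost met. The log2 difference was -0.049 (SE 0.026, 95% interval -0.11 to 0.0073, limma adjusted p = 0.925). Ndufa1, an X-linked accessory subunit of complex I, was at 17502, 17247 and 15672 units in wild type and 15658, 15477 and 16360 in Hdac2-null embryos. The first 2 wild-type arrays, both with high Xist, were above all other values of this comparison, and wild type 3 lay among the null arrays. The log2 difference of Ndufa1 was -0.085 (SE 0.045, limma adjusted p = 0.925). The 3 Hopx-null arrays read 16314, 17368 and 16504 and the 3 double-null arrays 15987, 15650 and 16193, and the array with high Xist was the lowest of the Hopx-null arrays and the middle one of the other null groups.

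In Hopx-null embryos the balance of signs was the opposite, again without a call. The median log2 difference from wild type was 0.029, against -0.0025 over all tested genes, and 39 of 48 genes were higher, where 48.9% of all tested genes were higher. No gene was called by limma (smallest adjusted p = 1, 0.0103% of all tested genes called). At an unadjusted p under 0.05 there were 0 (2.65% of all tested genes), and 4 without wild type 2 or 3 without Hopx-null 1. No gene had its groups apart, upward (1.89% of all genes) or downward (2.53%). Equal-numbered arrays of these 2 groups deviated together, and the median of the 48 genes, relative to the mean of each gene over all arrays, was higher in Hopx-null within all 3 pairs (0.020 and 0.018, 0.094 and 0.061, 0.024 and -0.053). A block for the replicate number cannot move the median difference (0.029) or the count of 9 lower genes, because every genotype has the same replicate numbers. That count moved with single arrays in the fit without the block, to 26 without wild type 3, 19 without Hopx-null 2 and 5 without wild type 1. The median there ran from -0.0088 (without wild type 3) to 0.048 (without wild type 2).

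Of the null groups, the double-null embryos had the lowest median against wild type. Here 41 of 48 genes were lower (54.4% of all tested genes), with a median of -0.048 against -0.014 over all genes, and of -0.072 without wild type 3 and -0.024 without wild type 2. No gene was called (limma, smallest adjusted p = 0.657, 0.031% of all tested genes called). An unadjusted p under 0.05 was found for 4 (7.31% of all genes), namely Ndufa2, Ndufs3 and Sdhc on the lower side and Uqcrc2 on the higher side. The groups did not overlap for 6 genes that were lower (8.61% of all genes) and 2 that were higher (6.31%). The count of 4 became 15 without wild type 3 and 1 without wild type 1, double-null 2 or double-null 3, and 2 without wild type 2 or double-null 1. Against Hdac2-null, 31 of 48 genes were lower (51.4%) with a median of -0.025 against -0.0045 (0.0067 without Hdac2-null 3, -0.0055 without double-null 3, -0.044 without Hdac2-null 2), none was called (limma, smallest adjusted p = 0.368, 0.0103% called) and 5 reached an unadjusted p under 0.05 (11.3%). The count of 5 became 1 without Hdac2-null 2 or double-null 3, 2 without double-null 2 and 3 without Hdac2-null 1. Groups were apart downward for 12 genes (12.7% of all genes) and upward for 3 (12.9%).

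The largest median displacement of the 6 comparisons was between double-null and Hopx-null embryos. There 41 of 48 genes were lower (52.5% of all tested genes), with a median of -0.081 against -0.007 over all tested genes. None was called (limma, smallest adjusted p = 0.538, 0.0207% of all tested genes called). An unadjusted p under 0.05 was found for 15 genes (8.13% of all tested genes), all on the lower side (5%), and all 3 double-null arrays lay below all 3 Hopx-null arrays for 25 genes (8.14%), while the reverse held for none (6.19%). Of the 25, 17 were complex I genes, 6 complex IV, and 1 each complex II and III. The count of 15 fell to 5 without Hopx-null 2 and to 5 without double-null 3. The median stayed between -0.092 and -0.058 whichever single array was left out. The interaction of the 2 losses, which asks whether the double-null difference departs from the sum of the single differences on the log2 scale, had a median of -0.059 against 0.0048 over all genes, with 36 of 48 genes below 0 (48.7%). With single arrays left out, the median ran from -0.092 (without wild type 2) to -0.019 (without wild type 3), and the count from 29 (without Hdac2-null 3) to 40 (without wild type 1). It gave 0 calls (limma, smallest adjusted p = 0.942, 0% of all tested genes called) and 4 genes at an unadjusted p under 0.05 (4.18%), a count that ran from 0 without wild type 3 or double-null 3 to 8 without Hopx-null 3 (7 without wild type 2, 1 without Hopx-null 2, 2 without Hdac2-null 2, Hdac2-null 3 or double-null 2). These comparisons share arrays, and those counts are not separate evidence.

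**Figure D2:**
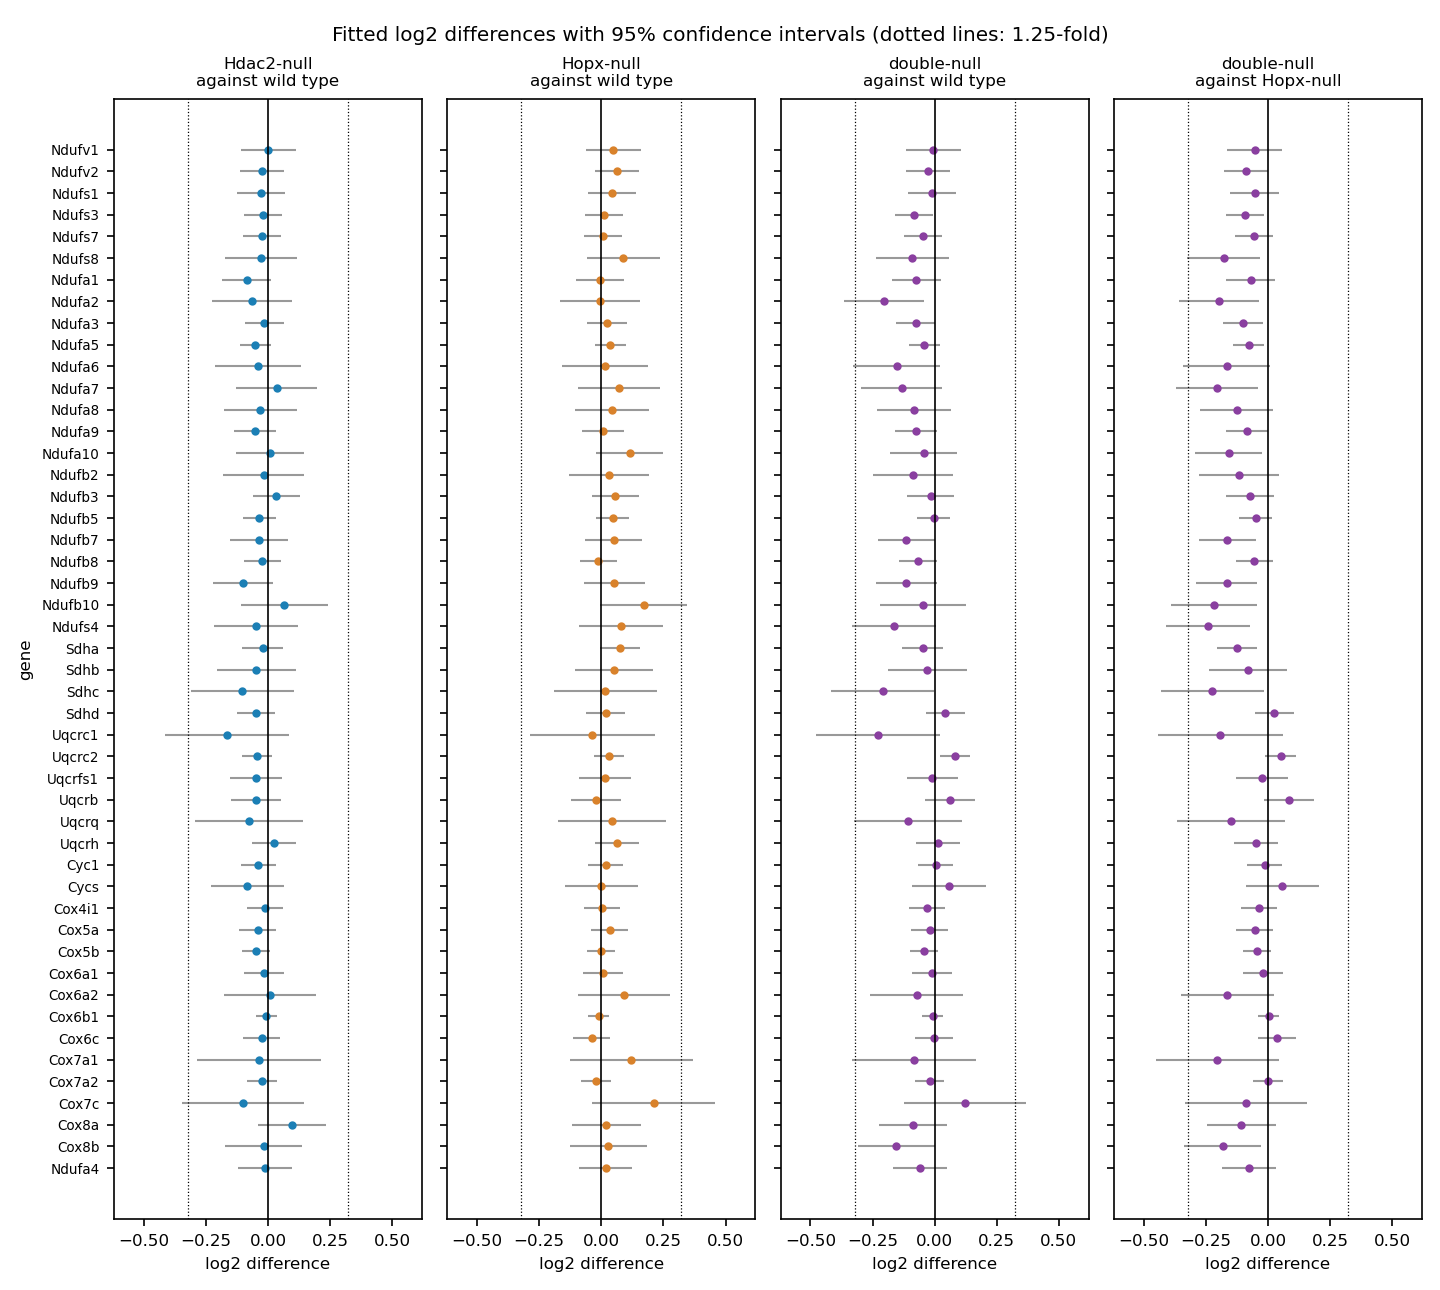
Log2 difference of each respiratory chain gene with its 95% confidence interval (horizontal axis), with genes ordered by complex. The comparisons are each null group against wild type and double-null against Hopx-null. Most intervals span 0 and lie between 20% lower and 25% higher, and the complex I genes sit to the left of 0 in double-null against Hopx-null embryos.

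Complex I, the NADH dehydrogenase, supplied most of the genes whose groups were apart between double-null and Hopx-null embryos. Its core subunits hold the flavin and the iron-sulfur clusters, and its accessory subunits surround and stabilise them. All 6 core subunits (median -0.073) and all 17 accessory subunits (median -0.13) were lower in double-null than in Hopx-null embryos (52.5% of all tested genes). Groups were apart for 4 of 6 and 13 of 17, where 8.14% of all tested genes were apart downward. An unadjusted p under 0.05 was reached by 3 core and 9 accessory subunits (8.13% of all tested genes, 5% on the lower side). Against wild type the same 6 and 17 genes were lower (54.4% of all tested genes), with medians of -0.038 and -0.077. Groups were apart there for 2 and 3 (8.61% of all tested genes downward). In each class 1 gene had an unadjusted p under 0.05 against wild type (7.31% of all tested genes). Both comparisons use the same double-null arrays. The displacement from Hopx-null was not confined to complex I. Complex II had a median of -0.10 there, with 3 of 4 genes lower and 2 at an unadjusted p under 0.05. The median was -0.024 for complex III, -0.053 for complex IV and -0.11 for the mitochondrial ribosome list.

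Ndufs4, an accessory subunit required for complex I assembly and activity, had one of the smallest p-values against Hopx-null. Its signal was 8862, 9430 and 8267 units in Hopx-null and 7700, 7562 and 7188 in double-null embryos, with 9063, 8757 and 7398 in wild type and 7768, 8016 and 8558 in Hdac2-null embryos. All double-null arrays were below all Hopx-null arrays, and wild type 3 lay within the double-null range. The log2 difference from Hopx-null was -0.24 (SE 0.077, 95% interval -0.41 to -0.072, limma adjusted p = 0.538). It ranged from -0.29 to -0.19 when single arrays were left out, and from -0.24 to -0.074 under the other settings. Its other probe sets above the floor gave differences as small as -0.038.

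Ndufb10, an accessory subunit of the membrane arm, showed the smallest p in the Hopx-null comparison with wild type and in the interaction. It was at 16197, 18590 and 14479 units in wild type, 17162, 15827 and 18396 in Hdac2-null, 18936, 18490 and 17740 in Hopx-null and 16042, 15773 and 15617 in double-null embryos. The 3 Hopx-null arrays were high and even, the double-null arrays low and even, and the wild-type arrays spread from below the one range into the other. The log2 difference of Hopx-null from wild type was 0.17 (SE 0.079, limma adjusted p = 1), and the interaction was -0.28 (SE 0.11, 95% interval -0.53 to -0.036, limma adjusted p = 0.942). Leaving out single arrays moved the first from 0.083 to 0.26.

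Ndufa2, a small accessory subunit with a thioredoxin-like fold, had the second smallest p in double-null against wild type. It read 18885, 17085 and 15530 units in wild type and 15392, 14598 and 14621 in double-null embryos, with 16164, 16832 and 16053 in Hdac2-null and 17882, 18036 and 15402 in Hopx-null embryos. The double-null and wild-type arrays did not overlap, with wild type 3 close above double-null 1. The log2 difference from wild type was -0.20 (SE 0.073, 95% interval -0.36 to -0.042, limma adjusted p = 0.657). It was -0.27 without wild type 3 and -0.13 without wild type 1.

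Among the core subunits, Ndufs8, which carries iron-sulfur clusters, had the largest difference between double-null and Hopx-null embryos. Its signal was 16033, 18869 and 16194 units in Hopx-null and 15270, 14918 and 14827 in double-null embryos. Hopx-null 2 stood above the rest, and all double-null arrays were the lower ones. The log2 difference was -0.18 (SE 0.066, limma adjusted p = 0.541), and its 5 probe sets above the floor gave values from -0.36 to -0.16. Ndufv1, the subunit that binds NADH and flavin, was 29211 ± 1733 units (SD, n = 3) in wild type, 29199 ± 954 in Hdac2-null, 30188 ± 1869 in Hopx-null and 29049 ± 488 in double-null embryos, a spread of group means smaller than the SD of wild type.

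Ndufb7, Ndufb9 and Ndufa7, accessory subunits, were among the other complex I genes with a small p between double-null and Hopx-null embryos, and were chosen after their values were seen. Ndufb7 read 25201, 25182 and 22783 units in Hopx-null and 22069, 22015 and 21193 in double-null embryos. Hopx-null 3 was close to the double-null arrays and the first 2 well above them. The log2 difference was -0.16 (SE 0.053, limma adjusted p = 0.538). Ndufb9 read 18956, 19805 and 18643 units against 16928, 17302 and 16923, a clear gap between the groups (-0.17, SE 0.055, limma adjusted p = 0.538), while its wild-type arrays (19387, 19178 and 16877) reached from the Hopx-null range to below the double-null range. Ndufa7 read 8779, 10043 and 8757 units against 8489, 8120 and 7307, with the outermost arrays Hopx-null 2 and double-null 3 (-0.21, SE 0.075, limma adjusted p = 0.539).

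The remaining complex I genes gave log2 differences, double-null minus Hopx-null, of -0.17 (Ndufa6, SE 0.079, limma adjusted p = 0.614) to -0.049 (Ndufb5). Ndufa10, another accessory subunit, was next to Ndufa6 at -0.16 (SE 0.061, limma adjusted p = 0.547). Ndufs3, a core subunit, was 22237 ± 788 units (SD, n = 3) in wild type and 20994 ± 165 in double-null embryos, all double-null arrays being lower (-0.082, SE 0.035, limma adjusted p = 0.669). Ndufa5, an accessory subunit, ranged by only 1.10-fold over the 12 arrays, and all its double-null arrays were below the Hopx-null ones (-0.078, SE 0.029, limma adjusted p = 0.541). Ndufv1 had the smallest difference of the core in that comparison, -0.054. From the lowest to the highest array, complex I genes ranged from 1.10-fold for Ndufa5 to 1.37-fold for Ndufa7.

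**Figure D3:**
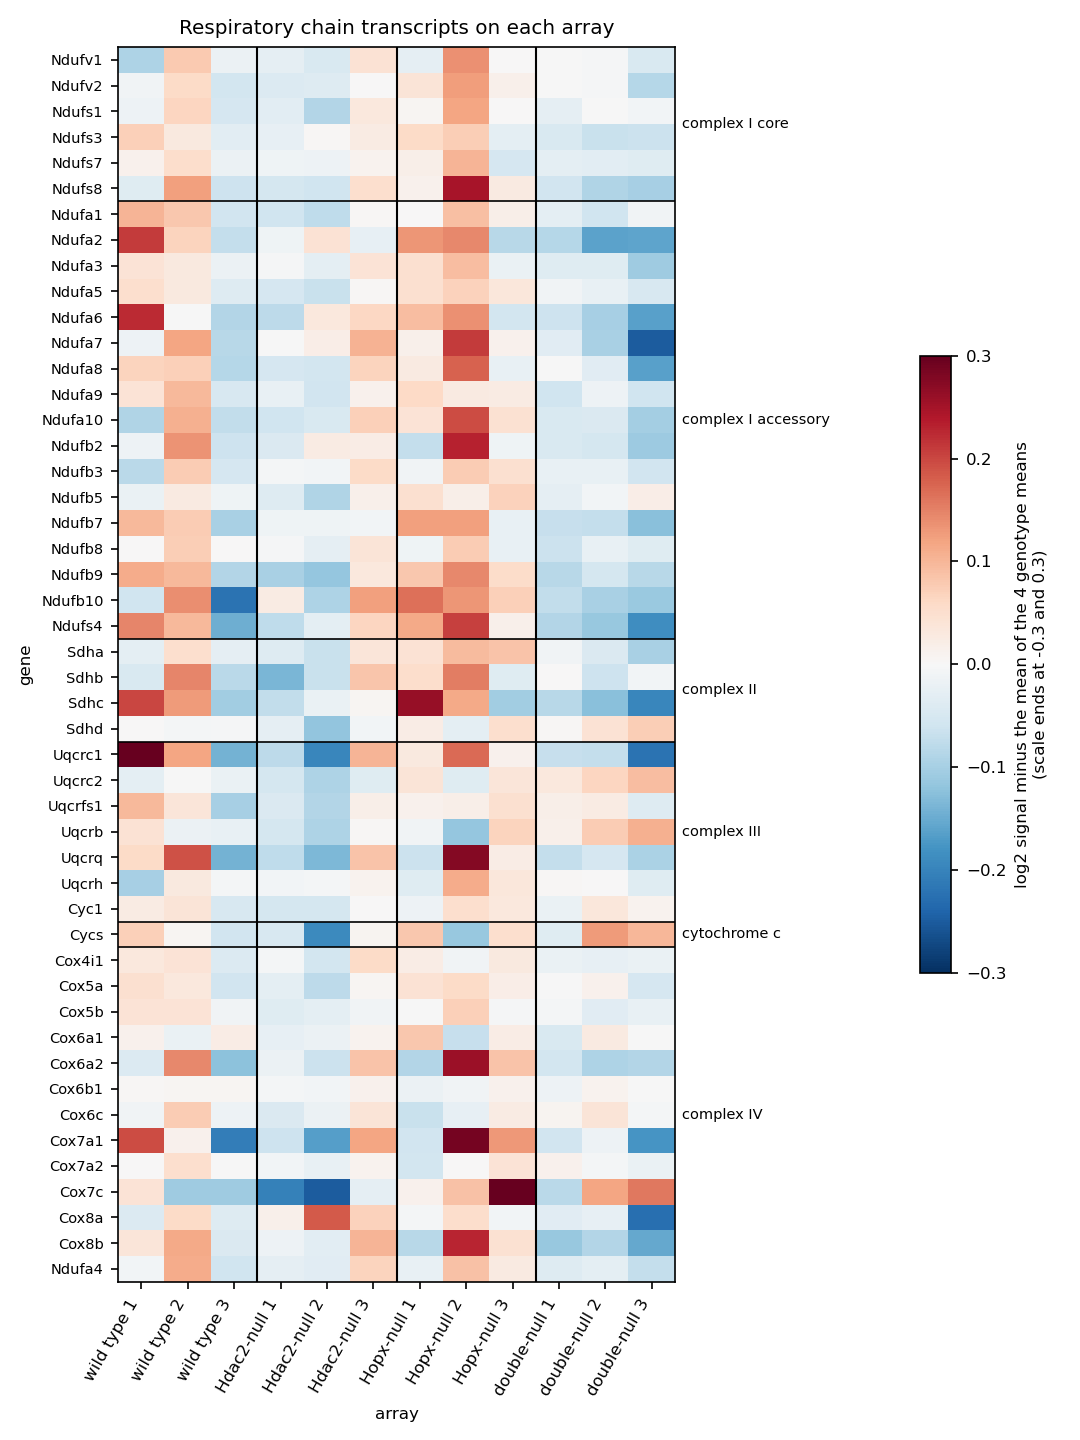
Log2 signal of each respiratory chain gene on each of the 12 arrays relative to the mean of that gene over all arrays (colour), with genes in rows by complex and arrays in columns by genotype. Hopx-null 2 is the highest array for 26 of 48 genes and double-null 3 the lowest for 17.

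Complex II, succinate dehydrogenase, belongs to both the chain and the tricarboxylic acid cycle and is encoded wholly in the nucleus. Its 4 genes did not follow a common pattern. The promoters of Sdha and Sdhd are shown because the 2 genes differed in how they followed the other respiratory chain genes across arrays. Capitals mark matches to GCGCA, then any base, then GCGC, a binding motif of NRF1 (nuclear respiratory factor 1), and, in Sdhd, to CCGGAAG, a motif of ETS factors such as GABPA, found here on the opposite strand as CTTCCGG. Each line holds the 250 bases before the annotated start, from RefSeq on build GRCm38.p6, minus strand, Sdha at chr13:74350241-74350490 and Sdhd at chr9:50603850-50604099.
Sdha: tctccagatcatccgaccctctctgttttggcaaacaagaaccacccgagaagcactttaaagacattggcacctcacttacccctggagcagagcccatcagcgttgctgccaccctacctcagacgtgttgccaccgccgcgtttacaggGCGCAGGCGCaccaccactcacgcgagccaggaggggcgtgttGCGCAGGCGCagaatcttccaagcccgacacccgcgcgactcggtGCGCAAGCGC
Sdhd: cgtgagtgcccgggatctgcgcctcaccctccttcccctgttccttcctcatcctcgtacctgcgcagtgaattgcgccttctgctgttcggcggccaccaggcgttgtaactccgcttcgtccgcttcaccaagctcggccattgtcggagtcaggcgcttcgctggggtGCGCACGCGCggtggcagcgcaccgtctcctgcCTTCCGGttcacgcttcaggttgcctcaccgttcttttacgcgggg

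Sdha, the flavoprotein with the succinate site, has 3 NRF1 matches, beginning 98, 55 and 10 bases before the start. Sdhd, a membrane anchor of the complex, has 1 such match at 79 bases and the ETS match at 46 bases. Over windows of 300 bases (250 before and 50 after each start, both strands), 37 of the 48 genes had 39 promoters in the RefSeq table. The NRF1 motif was in 8 of these 39 (20.5%), in 10.5% of promoters of tested genes and in 4.60% of all promoters. The ETS motif was in 9 (23.1%, against 18% and 8.86%), and AAGATGGCG, a motif of YY1, in 3 (7.69%, against 3.18% and 1.40%). TCAAGGTCA, a motif of estrogen-related receptors, was in 1 of the 39 promoters, that of Sdhd. A match is a stretch of letters, and no binding was measured here.

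Sdha was lower in double-null than in Hopx-null embryos with the smallest p of the 48 genes in that comparison. It read 19648, 20338 and 20211 units in Hopx-null and 18927, 18490 and 17814 in double-null embryos, with 18679, 19728 and 18713 in wild type and 18560, 18176 and 19524 in Hdac2-null embryos. The Hopx-null and double-null arrays were apart, wild type overlapped both, and Hdac2-null overlapped the double-null range alone. The log2 difference of double-null from Hopx-null was -0.12 (SE 0.037, 95% interval -0.21 to -0.043, limma adjusted p = 0.538). Hopx-null differed from wild type by 0.076 (SE 0.037, limma adjusted p = 1). A second Sdha probe set above the floor gave 0.016 between double-null and Hopx-null, so the direction rested on the brighter probe set.

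The other complex II genes varied separately. Sdhc, a membrane anchor, was at 7751, 7367 and 6274 units in wild type, 6406, 6650 and 6776 in Hdac2-null, 8090, 7303 and 6273 in Hopx-null and 6372, 6186 and 5893 in double-null embryos. The wild-type and Hopx-null arrays covered a wide range that overlapped the narrow double-null range only at its upper end. Its log2 difference of double-null was -0.21 from wild type (SE 0.094, limma adjusted p = 0.671) and -0.22 from Hopx-null (limma adjusted p = 0.562). Sdhb, the iron-sulfur subunit, was at 14954, 17074 and 14600 units in wild type, 14027, 14736 and 16344 in Hdac2-null, 16018, 17164 and 15057 in Hopx-null and 15459, 14795 and 15344 in double-null embryos, with overlap between all pairs of groups.

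Sdhd differed in that double-null arrays were not low. Its signal was 18577, 18496 and 18525 units in wild type, 18216, 17109 and 18474 in Hdac2-null, 18872, 18189 and 19246 in Hopx-null and 18606, 19148 and 19553 in double-null embryos. All double-null arrays were above all wild-type and Hdac2-null arrays, and wild type was almost constant. The log2 difference of double-null from Hdac2-null was 0.092 (SE 0.035, 95% interval 0.014 to 0.17, limma adjusted p = 0.393). Its second probe set gave -0.069 in the same comparison, the opposite sign.

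Complex III, which hands electrons from ubiquinol to cytochrome c, also included genes that were higher in double-null embryos. Its median differences were -0.048 in Hdac2-null and 0.0035 in double-null embryos against wild type. In the latter 4 of its 7 genes were higher (45.4% of all tested genes), 1 with an unadjusted p under 0.05 (7.31%). Uqcrc2, a core protein of the complex, was at 32531, 33138 and 32728 units in wild type, 32007, 31140 and 32333 in Hdac2-null, 34062, 32368 and 34033 in Hopx-null and 33931, 34716 and 35394 in double-null embryos. The 3 double-null arrays were above the 3 wild-type and the 3 Hdac2-null arrays, and Hdac2-null lay below wild type. Its log2 difference of double-null from Hdac2-null was 0.12 (SE 0.028, 95% interval 0.063 to 0.18), with an unadjusted p of 0.000934, the smallest of any of the 48 genes in any comparison, and a limma adjusted p of 0.368. From wild type it was 0.080 (SE 0.028, limma adjusted p = 0.657), and the interaction was 0.094 (SE 0.039, limma adjusted p = 0.942). The second Uqcrc2 probe set gave 0.030 and 0.011 in the 2 double-null comparisons, of the same sign and smaller.

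Uqcrb, a small subunit near the ubiquinone site, was lowest in Hdac2-null and highest in double-null embryos by group mean. It read 26234, 25543 and 27303 units in Hdac2-null and 27486, 28677 and 29294 in double-null embryos, which did not overlap (log2 difference 0.11, SE 0.046, limma adjusted p = 0.408). Uqcrc1, the partner of Uqcrc2 in the core, went the other way, at 6239 ± 1044 units (SD, n = 3) in wild type, 5532 ± 583 in Hdac2-null, 6033 ± 364 in Hopx-null and 5282 ± 315 in double-null embryos. With differences of -0.17 and -0.23 from wild type (SE 0.11 each), it was the largest displacement of the 48 genes in Hdac2-null and in double-null embryos, and its 95% interval reached -0.48 in the latter. Uqcrfs1, the Rieske iron-sulfur protein, and Cyc1, cytochrome c1, were at 19977 ± 1377 and 20494 ± 653 units in wild type and 19824 ± 474 and 20540 ± 398 in double-null embryos, differences smaller than either SD of wild type. Cycs, the mobile carrier cytochrome c, was 22908 ± 1025 units in wild type, 21641 ± 1519 in Hdac2-null, 22939 ± 1634 in Hopx-null and 23860 ± 1429 in double-null embryos, and the difference between double-null and Hdac2-null was 0.14 (SE 0.067, limma adjusted p = 0.46).

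Complex IV, cytochrome c oxidase, had the smallest median residual SD of the 4 complexes. Its 13 genes had median differences of -0.018 in Hdac2-null, 0.017 in Hopx-null and -0.032 in double-null embryos against wild type. In the same order, 11, 4 and 12 of them were lower, against 55.1%, 51.1% and 54.4% of all tested genes. Cox4i1, Cox5a and Cox6c, which surround the catalytic core, ranged by 1.08-fold, 1.10-fold and 1.10-fold from the lowest to the highest array. Cox7c was the dimmest gene and had the largest difference of Hopx-null from wild type, 0.21 (SE 0.11, limma adjusted p = 1), with 1243, 1122 and 1122 units in wild type and 1219, 1285 and 1546 in Hopx-null embryos, where the ranges overlapped.

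The muscle and ubiquitous isoforms of 3 complex IV subunits were set against each other within each array, since their ratio is known to shift as striated muscle matures. For Cox6a, the heart and muscle gene Cox6a2 was at 20304, 23072 and 19187 units in wild type, 20651, 19985 and 22173 in Hdac2-null, 19641, 24937 and 22152 in Hopx-null and 20089, 19580 and 19647 in double-null embryos. The ubiquitous gene Cox6a1 was at 26913, 26320 and 27101, then 26219, 26334 and 26892, then 28228, 25443 and 27115, and then 25848, 27178 and 26657 units in the same order. Hopx-null 2 was the highest array for Cox6a2 and the lowest for Cox6a1. The log2 ratio within arrays was -0.36 ± 0.16 (SD, n = 3) in wild type, -0.34 ± 0.06 in Hdac2-null, -0.28 ± 0.25 in Hopx-null and -0.43 ± 0.06 in double-null embryos.

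For Cox7a, the muscle gene Cox7a1 had the largest residual SD of all 48 genes. It was at 11074, 9755 and 8381 units in wild type, 9268, 8629 and 10496 in Hdac2-null, 9295, 11806 and 10596 in Hopx-null and 9296, 9574 and 8559 in double-null embryos. Cox7a2, the ubiquitous gene, was at 37119, 38393 and 37070, then 36877, 36520 and 37368, then 35723, 37115 and 38148, and then 37424, 36962 and 36574 units. The wild-type arrays of Cox7a1 alone spanned most of its range, whereas Cox7a2 varied by 1.07-fold in all. The log2 ratio was -1.96 ± 0.20 in wild type, -1.97 ± 0.13 in Hdac2-null, -1.81 ± 0.15 in Hopx-null and -2.02 ± 0.07 in double-null embryos (SD, n = 3).

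The promoters of the Cox7a genes are shown because isoforms of 1 subunit differ in sequence context. They are the 250 bases before each start on GRCm38.p6, from RefSeq, Cox7a1 at chr7:30183921-30184170 on the plus strand and Cox7a2 at chr9:79759854-79760103 on the minus strand. Neither holds a match to the NRF1, ETS, YY1 or estrogen-related receptor motif in these letters, so no part is in capitals.
Cox7a1: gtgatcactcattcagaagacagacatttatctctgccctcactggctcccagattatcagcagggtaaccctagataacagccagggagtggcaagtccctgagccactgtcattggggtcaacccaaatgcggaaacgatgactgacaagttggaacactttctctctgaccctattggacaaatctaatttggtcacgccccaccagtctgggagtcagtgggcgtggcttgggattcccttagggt
Cox7a2: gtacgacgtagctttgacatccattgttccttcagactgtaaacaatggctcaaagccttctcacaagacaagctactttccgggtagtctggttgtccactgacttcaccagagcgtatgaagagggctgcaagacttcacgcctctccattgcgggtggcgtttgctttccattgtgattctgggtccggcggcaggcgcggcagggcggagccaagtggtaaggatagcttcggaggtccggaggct

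The Cox7a1 sequence holds 4 CpG dinucleotides and that of Cox7a2 holds 14, and the corresponding windows of the muscle gene Cox8b and the ubiquitous gene Cox8a hold 1 and 11. Both muscle genes are thus poorer in CpG than their partners in these windows. No methylation or chromatin was measured in the series.

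For Cox8, the ubiquitous gene Cox8a was the one with a small p. It was at 7125, 7631 and 7136 units in wild type, 7404, 8328 and 7689 in Hdac2-null, 7295, 7606 and 7285 in Hopx-null and 7158, 7208 and 6269 in double-null embryos. Every double-null array was below every Hdac2-null array, with double-null 3 lowest and Hdac2-null 2 highest of all 12. The log2 difference was -0.18 (SE 0.063, 95% interval -0.32 to -0.046, limma adjusted p = 0.368), and a second probe set gave -0.12. Cox8b was at 19512, 20589 and 18456 units in wild type, 18819, 18600 and 20402 in Hdac2-null, 17953, 22302 and 19642 in Hopx-null and 17586, 17887 and 17112 in double-null embryos. All double-null arrays of Cox8b were below all arrays of each other group (log2 difference from Hopx-null -0.18, SE 0.071, limma adjusted p = 0.547). The log2 ratio of Cox8b to Cox8a was 1.42 ± 0.04 in wild type, 1.30 ± 0.13 in Hdac2-null, 1.43 ± 0.13 in Hopx-null and 1.35 ± 0.08 in double-null embryos (SD, n = 3).

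None of the 9 isoform comparisons with wild type reached the smallest p that 3 arrays against 3 allow, 0.1 in an exact two-sided permutation test. The exact p ran from 0.2 for Cox8 in Hdac2-null embryos (difference of the log2 ratio -0.11) to 1, and all adjusted values were 1. The largest shift was 0.14, for Cox7a in Hopx-null embryos, smaller than the SD of wild type for that ratio. For Cox8 the shifts in Hdac2-null (-0.11) and double-null embryos (-0.067) were larger in size than the wild-type SD of 0.043.

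**Figure D4:**
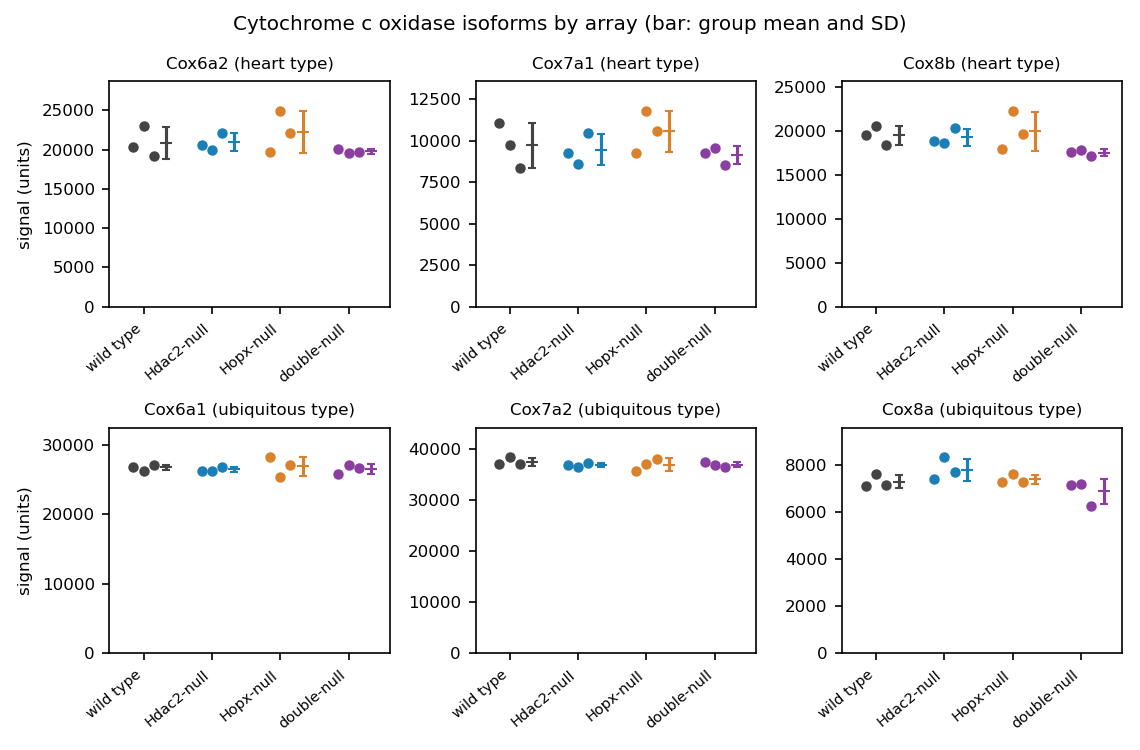
Signal in units (vertical axis) by genotype (horizontal axis) of the muscle isoform (upper row) and the ubiquitous isoform (lower row) of Cox6a, Cox7a and Cox8. There is 1 point per array, and a bar gives the group mean and SD. Each null group overlaps wild type in every panel but that of Cox8b, where all double-null arrays lie below all wild-type arrays.

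The 48 genes moved together from embryo to embryo within genotypes. Relative to the mean of each gene over all arrays, the median of the 48 genes was 0.018, 0.061 and -0.053 on the wild-type arrays, -0.037, -0.049 and 0.028 on the Hdac2-null arrays, 0.020, 0.094 and 0.024 on the Hopx-null arrays and -0.034, -0.027 and -0.059 on the double-null arrays. The same median over all tested genes stayed between -0.021 and 0.028. By group this median was 0.0088 ± 0.057 in wild type, -0.019 ± 0.042 in Hdac2-null, 0.046 ± 0.042 in Hopx-null and -0.040 ± 0.017 in double-null embryos (SD, n = 3), so the mean of each null group lay within 1 wild-type SD of the wild-type mean. A single axis held 50.3% of the within-group variance of the 48 genes, and the next 18.7%. The median correlation of within-group deviations over the 1128 pairs of genes was 0.48, and 80.5% of pairs were above 0. The points of each correlation are the same 12 arrays, and these values describe that set only. They were not computed for all tested genes or for other bright lists. They therefore do not show that the 48 genes moved together more than other genes did.

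**Figure D5:**
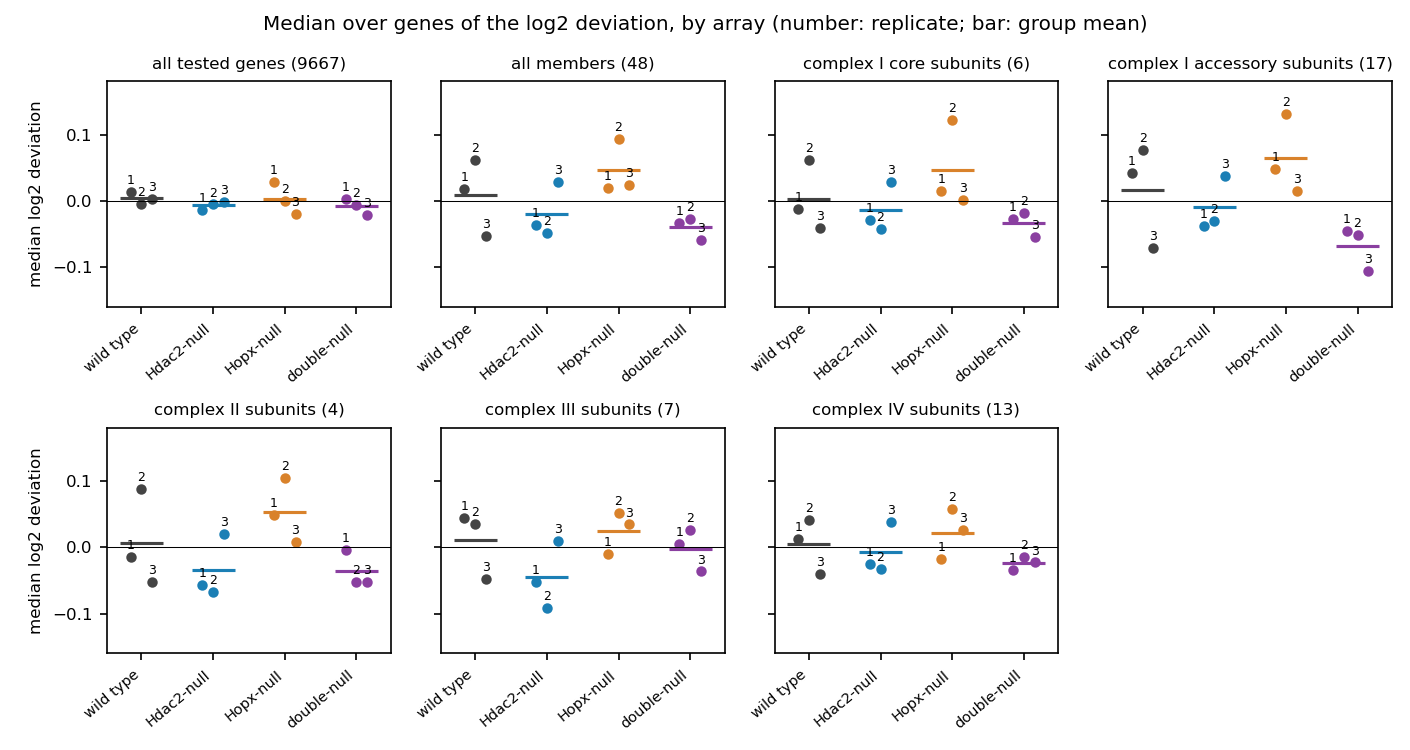
Median log2 deviation of the genes of each complex, of all 48 respiratory chain genes and of all tested genes on each array, relative to the mean of each gene over 12 arrays (vertical axis), with arrays grouped by genotype. Hopx-null 2 lies highest at 0.094 and double-null 3 lowest at -0.059 for the 48 genes, while all tested genes stay near 0.

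Some genes did not join the common movement. Uqcrq, a small complex III subunit, and Ndufa4 followed the median of the other genes most closely (r = 0.95 and 0.93 over 12 within-group deviations). Cox6a1 ran against it (r = -0.45), and Uqcrb (-0.20), Uqcrc2 (-0.17), Sdhd (-0.043), Cycs (0.029) and Cox7c (0.046) did not follow it. Sdha followed it with r = 0.79. Uqcrb, Uqcrc2 and Sdhd were also the 3 genes whose double-null arrays were all above their Hdac2-null arrays.

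Some other measurements were also highest and lowest on the 2 arrays at the ends, and others were not. The summed signal of the 10 ventricular markers was highest on Hopx-null 2 (306360) and lowest on double-null 3 (298400). The mitochondrial ribosome list had its highest median on Hopx-null 2 (0.16) and its lowest on double-null 3 (-0.16). The summed signal of 8 endothelial markers, all above the floor on every array, was between 14458 and 14951 in double-null and between 15233 and 15922 in Hopx-null embryos. It was between 14940 and 16872 in wild type, with wild type 1 highest, and between 16093 and 16788 in Hdac2-null embryos. Of 8 leukocyte markers 4 were below the floor on all arrays, and the summed signal was 5586 to 6217 in wild type and 4661 to 5439 over the null groups. The part of any of these in the differences of respiratory chain genes was not tested. Of the skeletal muscle markers 6 of 7 were below the floor on all arrays, as were 3 of 4 for brown fat and 3 of 6 for liver. The summed liver signal was 621 units on Hdac2-null 3, also the Hdac2-null array on which the respiratory chain genes were highest, and 53.5 to 179 on the others. In Hdac2-null against wild type, 8 of 8 fibroblast markers (median -0.096) and 7 of 7 atrial markers (median -0.17) were lower (55.1% of all tested genes). Atrial markers were also mostly lower in Hopx-null against wild type (6 of 7, median -0.22), where most respiratory chain genes were higher. In double-null against wild type 6 of 7 were lower (median -0.12). Fibroblast markers were lower for 4 of 8 in Hopx-null and 5 of 8 in double-null embryos. The part of either list in the differences of respiratory chain genes was not tested.

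Of the 48 genes, 28 had at least 2 probe sets above the floor on all arrays, which allowed a check of the direction. All probe sets of a gene had 1 sign in 21 of 28 genes for Hdac2-null against wild type, 16 for Hopx-null against wild type, 19 for double-null against wild type, 16 for double-null against Hdac2-null and 21 for double-null against Hopx-null. The sign of a single gene was therefore often not settled by its probe sets.

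Related mitochondrial genes gave no call in any comparison either. In double-null against Hopx-null embryos, 20 of 21 mitochondrial ribosomal protein genes were lower (median -0.11, 5 with an unadjusted p under 0.05), as were 30 of 38 assembly factors (median -0.086), 10 of 13 tricarboxylic acid cycle genes (median -0.015), 10 of 16 ATP synthase genes (median -0.045) and 10 of 15 further subunits of complexes I to IV (median -0.042). Of all tested genes, 52.5% were lower there, and 8.13% had an unadjusted p under 0.05 (5% on the lower side). In Hdac2-null against wild type the lower counts were 13 of 21, 29 of 38, 10 of 13, 11 of 16 and 9 of 15, where 55.1% of all tested genes were lower. Of 14 import and outer membrane genes, 8 were lower in the first of these comparisons and 11 in the second. ND5, a complex I subunit encoded in the mitochondrial genome and the one such gene matched on the array, was higher in double-null embryos than in wild type on all arrays (log2 difference 0.14, SE 0.057, limma adjusted p = 0.669), while the nuclear complex I genes were lower.

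The gene with the smallest p in each of these lists was as follows, and none passed limma's adjusted threshold. Mrps35, a mitochondrial ribosomal protein, was lower in double-null than in Hopx-null embryos by a log2 difference of -0.58 (SE 0.12, adjusted p = 0.538). Pet100, a complex IV assembly factor, differed by -0.42 (SE 0.11, adjusted p = 0.594) between double-null and wild type. Cox6b2, the testis isoform of Cox6b1, was at 1.08 (SE 0.28, adjusted p = 0.892) in Hdac2-null against wild type. Between double-null and Hdac2-null, Atp5o of ATP synthase was at 0.12 (SE 0.034, adjusted p = 0.368), Cs, citrate synthase, at 0.079 (SE 0.027, adjusted p = 0.368) and Tomm20, an import receptor, at 0.15 (SE 0.057, adjusted p = 0.378), all by limma.

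Transcriptional regulators of these genes were not called, with 0 of 19 at the adjusted threshold in any comparison. Perm1, a muscle regulator of mitochondrial genes, had the smallest p of the list (-0.46 in Hdac2-null against wild type, SE 0.19, limma adjusted p = 0.925). Ppargc1a, the coactivator PGC-1 alpha, differed from wild type by 0.072 in Hdac2-null, 0.017 in Hopx-null and 0.16 in double-null embryos (SE 0.081 each), and Ppargc1b by 0.081, 0.081 and -0.029 (SE 0.16). Esrra and Esrrg, estrogen-related receptors, differed by -0.17, -0.053 and -0.083 (SE 0.15) and by 0.020, -0.022 and 0.043 (SE 0.050). Nrf1 differed by 0.050, -0.16 and -0.12 (SE 0.14), Gabpa by 0.014, -0.047 and 0.012 (SE 0.062), and Tfam, a factor of mitochondrial DNA transcription, by -0.053, 0.066 and 0.0014 (SE 0.053). A p that misses the threshold does not show that levels were equal.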

How the data were processed

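Total RNA from 12 ventricles was primed with a poly(T) oligomer, amplified and hybridised to Affymetrix arrays, per the labels' protocols. The authors deposited linear intensity values, 45101 probe sets by 12 arrays. MAS5 is named in the submitters' processing notes, but 48.6% of values lay within 1 unit of 4.5, so the summary method is uncertain and the values were used without further normalisation.

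Signals were raised to a floor of 82.5 units (0.1 times the mean of the 2% trimmed array means) and log2-transformed. Of 18193 genes, 9667 were tested: those above the 40th percentile (4.76 units) and not at the floor on all arrays. Limma 3.58.1 in R 4.3.3 was fitted over all arrays with 1 coefficient per genotype, 8 residual degrees of freedom and an intensity trend. P-values were adjusted by Benjamini-Hochberg over all tested genes in each of 6 comparisons, and called means an adjusted p under 0.05. The fit was tested on simulated data. Intervals are at 95% and unadjusted. With 3 arrays per group, the number of arrays limits the precision.

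Values on every array are given for the 2 genes with the smallest p in each comparison, the isoform pairs, the genes with the largest and smallest residual SD and complex II, with Ndufs8, Ndufb7, Ndufb9, Ndufa7, Uqcrb and Cox7c chosen after their values were seen. The members, lists and rules were chosen with earlier results of these data known. The labels call the replicates biological and number them 1 to 3. Deviations from the group mean correlated across genes between wild-type and Hopx-null arrays of equal number (r = 0.42, 0.42 and 0.15). Their medians were therefore also set side by side as pairs, from the data and not from a stated litter or day. The fit that gave the p-values, SEs and intervals was unpaired, as was the isoform test. A block for the replicate number was run only as an alternative. In the other comparisons at least 1 pair was at 0.1 or lower. The largest correlation in any comparison was between arrays of unlike number, Hdac2-null 2 and wild type 3 (r = 0.50). Promoters were read from a RefSeq table of build GRCm38.p6 by symbol.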

Additional observations from a re-analysis of the deposited data

How the results depend on the processing

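No gene of the list was called in any comparison under any of the alternatives tried (another floor, filter, normalisation or probe set rule, no intensity trend, only the groups compared, Xist as a covariate, replicate block, single arrays left out), with 1 exception. With array weights, 6 of the 48 genes were called in double-null against Hdac2-null, where 951 of all tested genes were called, among them Uqcrc2 (0.12, limma adjusted p = 0.014). The weights ran from 0.31 for wild type 1 to 7.98 for double-null 2. With the replicate block 0 genes were called in each comparison. The block cannot change the medians, because every genotype has the same replicate numbers. These medians were -0.030, 0.029, -0.048, -0.025, -0.081 and -0.059 (in the order Hdac2-null, Hopx-null and double-null against wild type, double-null against Hdac2-null and Hopx-null, interaction). Medians over the list kept their sign under all settings other than single arrays left out, where Hopx-null against wild type ran from -0.0088 to 0.048 and double-null against Hdac2-null from -0.044 to 0.0067.

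The number of the 48 genes at an unadjusted p under 0.05 ran over all settings from 0 to 8 in Hdac2-null, 0 to 4 in Hopx-null and 1 to 15 in double-null against wild type, 1 to 12 in double-null against Hdac2-null, 5 to 19 against Hopx-null and 0 to 8 in the interaction. These numbers are not set against the share of all tested genes at that threshold under the same setting. At the adjusted threshold, 0 to 4, 1 to 2, 1 to 8, 1 to 951, 0 to 5 and 0 to 1 of all tested genes were called, with the comparisons in the same order.

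Of the 9 differences of isoform ratio from wild type, 3 kept their sign under all settings run (Cox8 in Hdac2-null and double-null, Cox7a in Hopx-null) and the others did not. With the mean of probe sets, Cox6a in Hdac2-null was -0.10 (main value 0.025) and Cox8 in Hopx-null was -0.021 (0.0087). Leaving out single arrays gave -0.042 to 0.11, -0.043 to 0.20 and -0.13 to 0.027 for Cox6a in Hdac2-null, Hopx-null and double-null, -0.11 to 0.092, 0.047 to 0.25 and -0.16 to 0.043 for Cox7a, and -0.17 to -0.042, -0.054 to 0.073 and -0.11 to -0.039 for Cox8. The cause of these moves was not tested. These left-out values for isoforms, and the fit without wild type 2 and Hopx-null 2 together, were added after the data were seen.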
